A study of Mus musculus with 5 samples.

Results

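This account follows 10 genes of the Wnt pathway through mouse mammary tumours: the secreted antagonists Wif1, Sfrp1, Sfrp2, Sfrp4 and Dkk3, the ligands Wnt4, Wnt5a and Wnt5b, and the target gene and receptor pair Axin2 and Lgr5. They were taken by symbol from the 41028 gene names of the deposited single-cell count tables, and all 10 were found. The questions were which cells of the tumour held their transcripts and how unevenly the transcripts were spread among the tumour epithelial cells.

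The tumours came from PyMT mice, in which the polyoma virus middle T antigen drives mammary tumours. The strain, the age, the promoter of the transgene and whether tumours were pooled are not given in the labels. Every sample was a digested mammary tumour enriched for viable cells. The 5 samples were fresh 10x 1 and fresh 10x 2 (10x Genomics Chromium 3′ v2, droplets), stored 10x (the same chemistry, titled 24 h, from a digest held overnight at 4 °C until viability had fallen), BD 1 (fresh, BD Rhapsody whole transcriptome assay, microwells) and BD 2 (BD Rhapsody). The title of BD 2 says fresh and the names of its deposited tables say 24 h, so no storage state was assumed for it. No label says that the fresh 10x samples came from separate animals, so p-values measure the spread between these samples, which may be technical. The libraries held up to 4186 cells each, 15958 in all, and 29166129 to 59957945 UMIs, with a median of 8926 to 12474 UMIs per cell. A UMI, a unique molecular identifier, marks a single captured transcript. Mitochondrial genes took a median of 6.14% to 7.17% of UMIs in the 10x libraries, 15.2% in BD 1 and 19.8% in BD 2. Between 0 and 24 cell barcodes were shared by any pair of libraries.

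Wnt proteins are secreted lipid-modified ligands. They bind Frizzled receptors together with the co-receptors Lrp5 and Lrp6, which stabilises β-catenin, or they act through Ror and Ryk receptors without β-catenin. Wnt4 is a progesterone-induced signal of hormone-sensing cells in the normal mammary gland. Wnt5a and Wnt5b are best known for signalling that does not use β-catenin. Wif1 and the Sfrp proteins bind Wnt ligands outside the cell. Dkk3 is a divergent member of the Dickkopf family, whose other members block Lrp5 and Lrp6. Axin2 is a negative-feedback target of β-catenin signalling, and Lgr5 is both a target gene and a receptor for R-spondins, which prolong Wnt signalling.

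Cells were grouped by clustering without any of the 80 Wnt pathway genes considered here, so no member entered the grouping. This gave 10282 epithelial-like, 1191 fibroblast-like, 787 macrophage-like, 427 endothelial-like and 175 mural-like cells. A cluster of 487 cells was led by Krt5, Krt14 and Krt17, and another of 499 cells by T cell and NK cell genes. Both are called by their leading genes. Epithelial-like cells held all 8 epithelial markers at a summed level of 4076 to 7261 CPM and fibroblast-like cells held all 6 fibroblast markers at 45586 to 63072 CPM. CPM are the UMIs of a gene per 1000000 UMIs of a class in a library, listed below in the order fresh 10x 1, fresh 10x 2, stored 10x, BD 1 and BD 2. They compare a gene with itself across cells, not genes with each other.

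Of the 10 members, 5 matched a RefSeq promoter (assembly GRCm38.p6). The 200 bases from 250 to 51 before the start are shown for a pair of genes that were higher in fibroblast-like cells, Sfrp2 and Axin2, and a pair that were higher in epithelial-like cells, Wif1 and Wnt5b. For Wnt5b the shown start is the one nearest its 3′ end. Capitals mark matches on either strand to CTTTGA or CTTTGT (the core that TCF and LEF factors bind), TATAAA (the TATA box), GGGCGG (the Sp1 box) or CCAAT. These matches do not overlap one another, and a match is only a run of letters.
Sfrp2, chr3:83766071-83766270, plus strand: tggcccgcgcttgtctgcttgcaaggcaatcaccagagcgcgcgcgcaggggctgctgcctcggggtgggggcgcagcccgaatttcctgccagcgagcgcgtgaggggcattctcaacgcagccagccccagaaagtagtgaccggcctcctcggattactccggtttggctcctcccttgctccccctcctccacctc
Axin2, chr11:108920099-108920298, plus strand: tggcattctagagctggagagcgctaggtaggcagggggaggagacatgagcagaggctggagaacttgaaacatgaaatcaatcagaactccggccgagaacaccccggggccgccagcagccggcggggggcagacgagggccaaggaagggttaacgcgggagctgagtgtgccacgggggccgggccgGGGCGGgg
Wif1, chr10:121033754-121033953, plus strand: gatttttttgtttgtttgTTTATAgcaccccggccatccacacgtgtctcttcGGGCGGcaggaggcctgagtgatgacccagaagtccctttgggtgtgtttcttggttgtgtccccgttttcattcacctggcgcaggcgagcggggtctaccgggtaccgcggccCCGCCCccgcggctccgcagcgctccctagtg
Wnt5b, chr6:119449437-119449636, minus strand: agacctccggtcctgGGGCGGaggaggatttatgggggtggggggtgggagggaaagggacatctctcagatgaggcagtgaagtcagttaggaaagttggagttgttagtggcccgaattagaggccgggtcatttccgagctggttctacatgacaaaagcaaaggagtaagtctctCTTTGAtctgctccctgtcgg
The Wif1 window held TATAAA on the minus strand and 2 copies of GGGCGG. The Axin2 window held GGGCGG 58 bases before the start. The Wnt5b window shown held GGGCGG, and CTTTGA 71 bases before the start, while the Sfrp2 window held none of the 5 motifs. The windows of the other Wnt5b starts, chr6:119467262-119467461 and chr6:119544398-119544597, also held none of the 5. Of 32851 RefSeq promoters of mouse genes, 11.8% held CTTTGA, 13.6% CTTTGT, 9.14% TATAAA, 24.6% GGGCGG and 28.4% CCAAT in the same window. In GENCODE M21, on the mm10 build that the submitters' processing notes name, Wif1 spans chr10:121033960-121100650, Sfrp2 chr3:83766321-83774316, Axin2 chr11:108920349-108950783 and Wnt5b chr6:119432531-119544347, all protein coding. The other members are Sfrp1 at chr8:23411502-23449632, Sfrp4 at chr13:19623104-19632994, Dkk3 at chr7:112116017-112159057, Wnt4 at chr4:137277489-137299726, Wnt5a at chr14:28504750-28527448 and Lgr5 at chr10:115450311-115587780.

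All antagonists but Wif1 had their highest mean level in fibroblast-like cells. Sfrp2 measured 709.9, 1022, 913, 1261 and 1014 CPM in fibroblast-like cells and 3.33, 3.60, 7.35, 7.70 and 6.07 CPM in epithelial-like cells. The lowest fibroblast value was above the highest value of any other class or cluster in any library that held at least 20 such cells. Were every cell read to 2000 UMIs, 44.6% to 58.1% of fibroblast-like cells would be expected to show one of Sfrp2, against 0.687% to 1.87% of epithelial-like cells. Sfrp4 measured 151.5, 238, 663, 472 and 299 CPM in fibroblast-like cells and at most 1.43 CPM in epithelial-like cells. Its fibroblast level was highest in the stored 10x library and lowest in fresh 10x 1, and no other class or cluster reached it. Sfrp1 measured 311, 543, 449, 981 and 981 CPM in fibroblast-like cells. It had a second source in the Krt5 and Krt14 cluster, at 92.7, 77.3, 97.6, 219.9 and 208 CPM, and a lower level in epithelial-like cells, at 22.7, 29.1, 27.2, 47.9 and 42.9 CPM. These 3 ranges did not overlap, and in all 3 the BD Rhapsody libraries were the highest. A small cluster led by Hbb-bs and Meg3 lay at 39.0 to 48.8 CPM and overlapped the epithelial range.

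Dkk3 measured 118, 86.7, 36.7, 93.3 and 67.7 CPM in fibroblast-like cells, and its order was less clear-cut. The Krt5 and Krt14 cluster followed at 21.5, 26.2, 24.6, 52.1 and 60.5 CPM, and the mural-like cells at 31.5, 21.3 and 17.8 CPM in the 3 libraries that held at least 20 of them. These ranges overlapped, and the remaining classes lay at or below 17.04 CPM in every library. In epithelial-like cells Dkk3 stayed at or below 2.06 CPM. Wif1 ran the other way, at 7.44, 4.38, 13.3, 13.0 and 25.1 CPM in epithelial-like cells and 1.90, 1.04, 1.55, 1.04 and 5.94 CPM in fibroblast-like cells. The Krt5 and Krt14 cluster, at 2.58 to 9.18 CPM, overlapped the epithelial range. The fibroblast value of BD 2 rested on 22 UMIs in 3 cells.

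**Figure D1:**
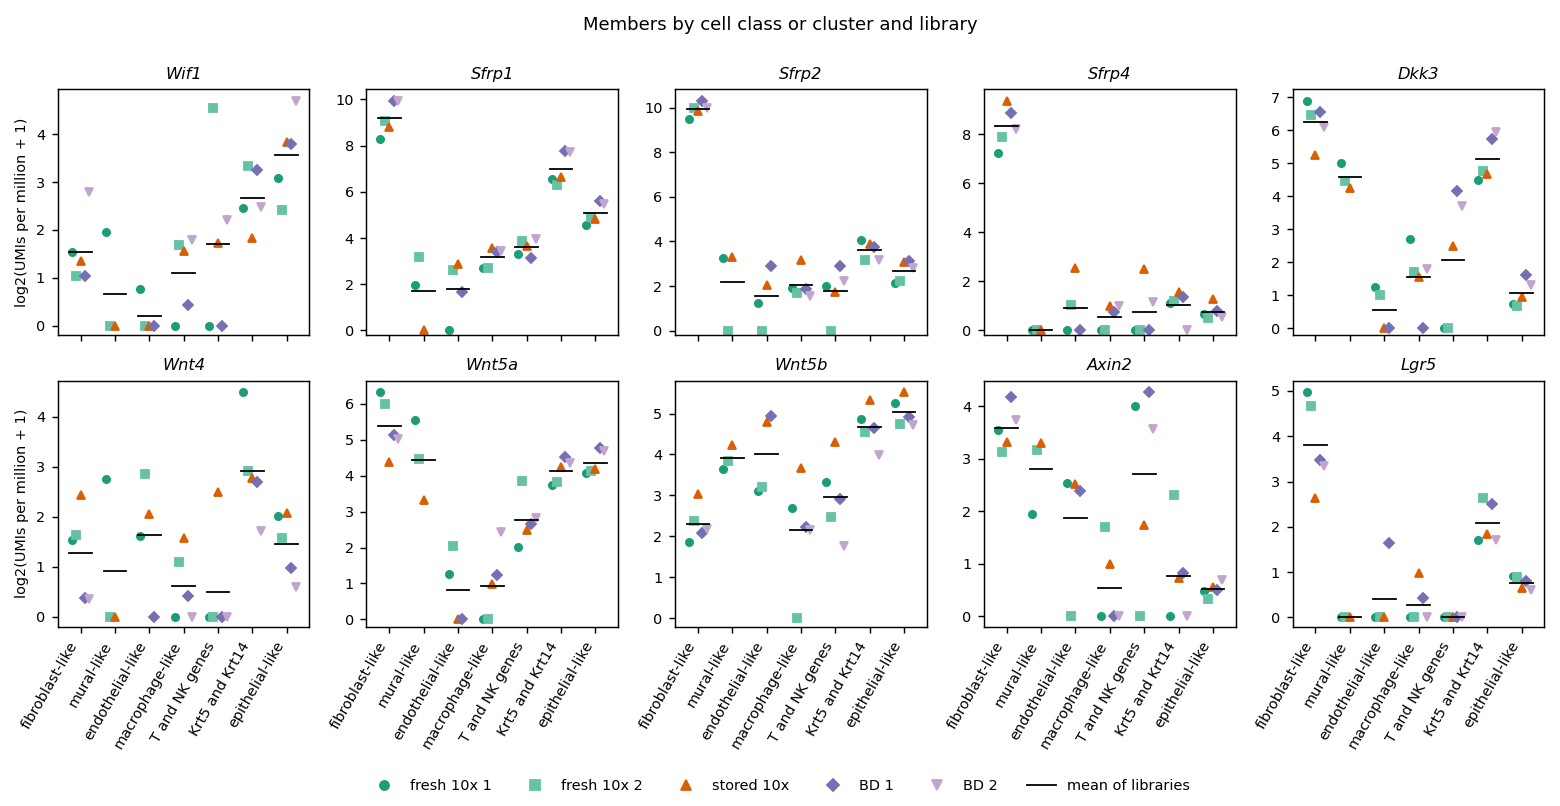
Level of each member as log2(CPM + 1) in each class or cluster, with a point for each library that held at least 20 such cells and a line at the mean of the libraries. Sfrp1, Sfrp2 and Sfrp4 stand highest in fibroblast-like cells, Wif1 and Wnt5b have their highest mean in epithelial-like cells, and Wnt4 is low in every class.

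Among the ligands, Wnt5b had its highest mean in the epithelium. It measured 37.4, 25.7, 44.9, 29.0 and 25.1 CPM in epithelial-like cells and 28.3, 22.3, 39.4, 24.1 and 14.8 CPM in the Krt5 and Krt14 cluster. These ranges overlapped across libraries, while within 5 of 5 libraries the epithelial value was the higher, a difference that was not tested. Fibroblast-like cells had the lowest mean of all classes for Wnt5b, at 2.66, 4.15, 7.25, 3.26 and 3.51 CPM. Wnt5a was shared between stroma and epithelium. It measured 79.2, 63.4, 19.7, 33.8 and 31.6 CPM in fibroblast-like cells, 45.8, 21.3 and 8.92 CPM in mural-like cells of the 3 libraries that held at least 20 of them, and 15.7, 16.5, 17.3, 26.1 and 24.6 CPM in epithelial-like cells. The fibroblast and epithelial ranges overlapped across libraries, although within each library the fibroblast value was the higher. Wnt4 was scarce in every class as a whole, with 322 UMIs in all 10282 epithelial-like cells and 29 UMIs in all 1191 fibroblast-like cells. Its highest class mean was in the Krt5 and Krt14 cluster, at 21.5, 6.55, 5.81, 5.44 and 2.28 CPM, which overlapped the endothelial-like cells at 0 to 6.22 CPM.

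Axin2 and Lgr5 were also stromal in these libraries. Axin2 measured 10.7, 7.79, 9.06, 17.2 and 12.4 CPM in fibroblast-like cells and 0.394, 0.245, 0.476, 0.403 and 0.614 CPM in epithelial-like cells, where 78 UMIs were found in all. The cluster led by T cell and NK cell genes held 15.1, 0, 2.33, 18.3 and 10.9 CPM of Axin2, from 29 UMIs, and overlapped the fibroblasts. Lgr5 measured 30.5, 24.4, 5.18, 10.1 and 9.18 CPM in fibroblast-like cells and at most 0.876 CPM in epithelial-like cells. The lower end of its fibroblast range overlapped the Krt5 and Krt14 cluster, at 2.26 to 5.24 CPM. No Lgr5 UMI was found in the T and NK gene cluster, where 3 counts would be 3.64 to 13.5 CPM. At 2000 UMIs per cell, 1.84% to 3.05% of fibroblast-like cells would show an Axin2 UMI and 0.953% to 4.98% a Lgr5 UMI.

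Free RNA in droplets and wells gives UMIs in cells that do not express a gene, and so do doublets, which were not removed. As a gauge, the markers of each class were read in cells of the other, which does not tell these sources apart. The 6 fibroblast markers appeared in epithelial-like cells at a median of 0.147% to 0.319% of their fibroblast level, with 0.699% as the highest single marker. Sfrp4 stood at 0.146% to 0.376%, at or close to the level of these markers. Sfrp2 stood at 0.352% to 0.805%, above the median marker in every library and nearer the highest one. In the stored library Sfrp2, at 0.805%, was above the highest marker there, at 0.698%, and in the other libraries it was below the highest. The part of free RNA or doublets in these counts was not tested. Sfrp1 stood at 4.37% to 7.30%, Axin2 at 2.34% to 5.26%, Lgr5 at 2.88% to 10.96% and Wnt5a at 19.9% to 88.0%, all above every fibroblast marker. Dkk3 stood at 0.558% and 0.708% in the fresh 10x libraries and at 2.21% to 2.59% in the other 3. In the opposite direction the 8 epithelial markers appeared in fibroblast-like cells at a median of 1.76% of their epithelial level in both fresh 10x libraries, 5.21% in BD 1, 5.25% in BD 2 and 11.01% in the stored library. Wif1 stood at 25.6%, 23.7%, 11.6%, 8.003% and 23.6%, and Wnt5b at 7.13%, 16.2%, 16.1%, 11.3% and 14.0%. In the stored library both lay within the range of the markers, which reached 16.4%.

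Within libraries, 9 of the 10 members differed between fibroblast-like and epithelial-like cells. The test was edgeR's quasi-likelihood test with the library as a block and Benjamini-Hochberg adjustment over 14787 genes. With 72.1% of all genes past an adjusted p of 0.05 (32.4% higher in fibroblast-like cells and 39.7% lower), a call alone says little, and the sizes are given for comparison. Sfrp4 was higher in fibroblast-like cells by 9.005 ± 0.22 on the log2 scale (SE), Sfrp2 by 7.47 ± 0.18, Dkk3 by 5.97 ± 0.29, Axin2 by 4.71 ± 0.26, Lgr5 by 4.20 ± 0.28 and Sfrp1 by 4.16 ± 0.16. Wnt5b differed by -2.98 ± 0.17 and Wif1 by -2.61 ± 0.25, so both were higher in epithelial-like cells. Each of these 8 kept its direction in 5 of 5 libraries, and the largest of their adjusted p was 2.43e-05, for Wif1. Wnt5a was higher in fibroblast-like cells by 1.01 ± 0.30 (adjusted p = 0.0149), but the call was lost without fresh 10x 1 (0.63, adjusted p = 0.0661) and without fresh 10x 2 (0.75, adjusted p = 0.0871). Wnt4 did not pass, at -0.35 ± 0.36 (adjusted p = 0.499). Across the members the median difference was 4.18, against -0.14 over all genes tested. The members were chosen with earlier results of these data known, so these medians are a description and no test.

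The rest of the pathway was divided in the same comparison. Of 19 Wnt ligands, 13 had enough counts to be tested. Fibroblast-like cells were higher for 10 of them and lower for 2, Wnt5b and Wnt7b. Wnt2 reached 33.7 to 52.8 CPM in fibroblast-like cells against at most 0.0907 CPM in epithelial-like cells (9.42 ± 0.19), Wnt16 reached 7.23 to 20.3 CPM (8.13 ± 0.34), Wnt11 reached 14.0 to 33.9 CPM (7.02 ± 0.25) and Wnt9a 25.1 to 44.4 CPM (6.24 ± 0.17). Wnt10b, at 0.519 to 4.75 CPM, was higher by 3.53 ± 0.61. Wnt7b was epithelial, at 1.95 to 4.90 CPM against at most 0.776 CPM (-3.45 ± 0.50). Wls and Porcn, which ready Wnt proteins for secretion, were both higher in fibroblast-like cells, by 2.19 ± 0.10 and 1.82 ± 0.23. The antagonists Dkk2 (8.69 ± 0.27) and Frzb (7.56 ± 0.62) went with the 4 fibroblast antagonists, so that 6 of 7 tested antagonists were higher there and Wif1 alone was lower. Dkk2 was not particular to fibroblast-like cells, where it measured 36.2 to 54.0 CPM. Its highest mean was in endothelial-like cells, at 34.8 to 59.4 CPM. Rspo1, an R-spondin, was higher in fibroblast-like than in epithelial-like cells by 3.90 ± 0.31. Genes that pass the filter on low counts through a single class must differ between classes, so these counts describe the genes that passed and are no test of the list.

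Receptors and feedback genes fell on both sides. Of 19 tested receptors, 10 were higher and 7 lower in fibroblast-like cells. Ror2, a receptor for Wnt5a, was higher by 7.58 ± 0.23, Fzd1 by 4.38 ± 0.16, Fzd10 by 3.76 ± 0.45, Fzd4 by 3.63 ± 0.47 and Fzd2 by 3.15 ± 0.17. Fzd4 and Fzd10 had their highest mean in endothelial-like cells, at 99.7 to 129.8 CPM and 0 to 6.91 CPM. The R-spondin receptor Lgr6 was epithelial, at 14.9 to 41.3 CPM against at most 3.88 CPM (-3.93 ± 0.29), in contrast to Lgr5. Fzd9 (-3.77 ± 0.46), Fzd6 (-1.48 ± 0.15), Fzd5 (-1.30 ± 0.18) and Lrp5 (-1.06 ± 0.18) were also higher in epithelial-like cells. Rnf43 and Znrf3, ubiquitin ligases that remove Frizzled receptors, were both epithelial, with Rnf43 at 19.1 to 25.3 CPM against at most 1.89 CPM (-4.43 ± 0.37) and Znrf3 at -1.41 ± 0.17. Of 11 tested target genes, 5 were higher in fibroblast-like cells: Axin2, Lgr5, Apcdd1 (6.40 ± 0.78), Nkd2 (4.31 ± 0.38) and Nkd1 (3.81 ± 0.25). The 3 that were lower were Rnf43, Znrf3 and the cyclin gene Ccnd1, at -3.35 ± 0.18. Intracellular components differed less. Of 13 tested, Tcf7l1 (1.76 ± 0.18) and Dvl3 (0.60 ± 0.09) were higher, and 6 were lower, among them Tcf7l2 (-0.70 ± 0.19), Csnk1a1 (-0.63 ± 0.12), Dvl1 (-0.57 ± 0.10), Gsk3a (-0.43 ± 0.10) and Apc (-0.36 ± 0.10).

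**Figure D2:**
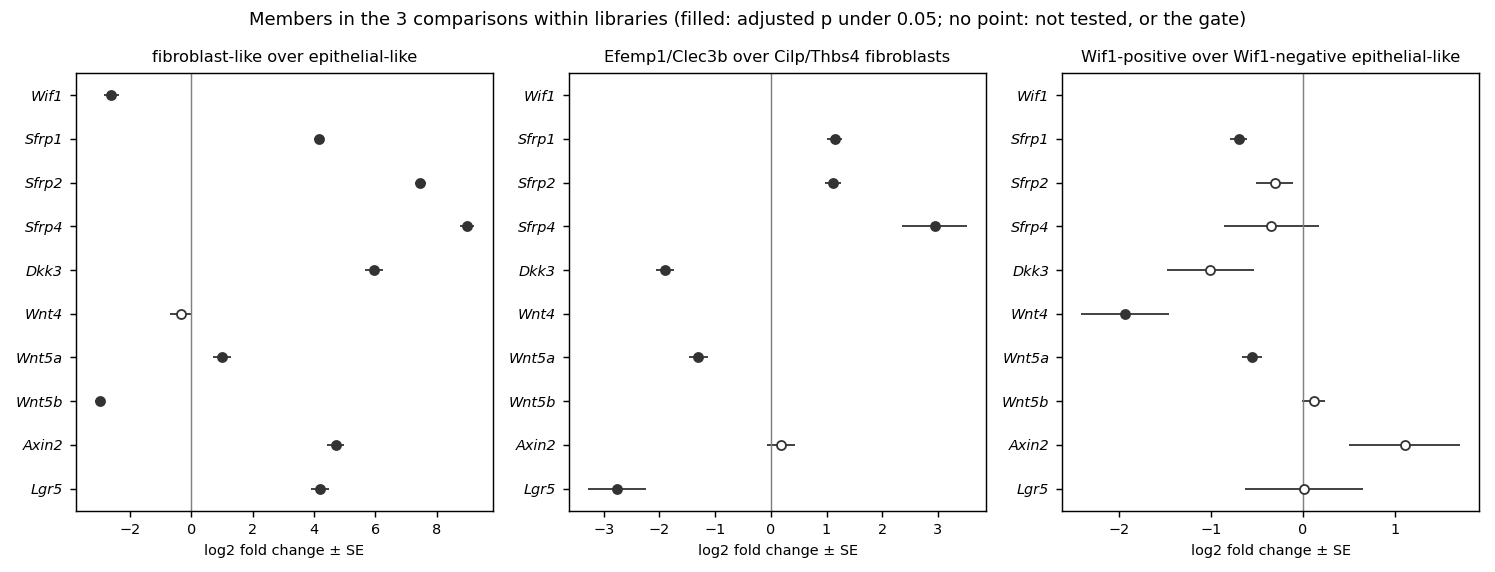
Log2 difference ± SE of each member in 3 comparisons made within libraries by edgeR's quasi-likelihood test: fibroblast-like over epithelial-like cells, Efemp1/Clec3b over Cilp/Thbs4 fibroblasts, and Wif1-positive over Wif1-negative epithelial-like cells. Filled points have an adjusted p under 0.05. Differences run from -2.98 for Wnt5b to 9.005 for Sfrp4 in the left panel, and the middle panel splits the stromal members into 3 higher and 3 lower.

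The fibroblast antagonists did not share a fibroblast type. Fibroblast-like cells were split in each library by their UMIs for Efemp1 and Clec3b against those for Cilp and Thbs4, and 7 members had enough counts to be tested. Sfrp1, Sfrp2 and Sfrp4 were higher in the Efemp1/Clec3b cells, while Dkk3, Wnt5a and Lgr5 were higher in the Cilp/Thbs4 cells. In this comparison 20.7% of 10753 genes passed (10.4% higher and 10.3% lower). Wif1, Wnt4 and Wnt5b had too few counts.

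Sfrp4 measured 783, 745, 923, 646 and 354 CPM in Efemp1/Clec3b fibroblasts and 22.4, 6.39, 203, 127 and 209.9 CPM in Cilp/Thbs4 fibroblasts (log2 difference 2.94 ± 0.58, adjusted p = 0.00298). The ranges did not overlap, but in BD 2 the values were closest. Sfrp1 measured 701, 978, 567, 1152 and 1120.5 CPM against 239, 358, 248, 622 and 764 CPM (1.14 ± 0.14, adjusted p = 7.06e-05). Sfrp2 measured 1638, 1766, 1123, 1464 and 1151 CPM against 509.5, 674, 543, 856 and 766 CPM (1.12 ± 0.14, adjusted p = 0.000113). Within every library the Efemp1/Clec3b cells were higher for both genes, and across libraries the ranges overlapped for Sfrp1 and not for Sfrp2.

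Dkk3 measured 42.2, 33.1, 11.8, 48.3 and 35.7 CPM in Efemp1/Clec3b fibroblasts and 133, 116, 83.3, 184 and 98.1 CPM in Cilp/Thbs4 fibroblasts, with no overlap (-1.90 ± 0.16, adjusted p = 3.66e-06). Wnt5a measured 24.4, 21.5, 13.0, 20.3 and 26.4 CPM against 84.7, 75.9, 32.0, 57.7 and 38.3 CPM, again with no overlap (-1.30 ± 0.17, adjusted p = 0.000153). Lgr5 measured 22.2, 8.27, 3.24, 1.11 and 0.425 CPM against 34.4, 32.8, 8.93, 28.4 and 25.3 CPM (-2.76 ± 0.52, adjusted p = 0.00221), lower in 5 of 5 libraries. Axin2 did not pass, at 0.18 ± 0.25 (adjusted p = 0.709). The adjusted p-values are from edgeR's quasi-likelihood test with the library as a block. Without the block, the calls for Sfrp1 (adjusted p = 0.114), Sfrp4 (0.0519) and Lgr5 (0.0643) were lost. Of 39 other pathway genes tested in this split, 5 were higher in Efemp1/Clec3b cells: Wnt16, Fzd4, Lrp6, Myc and Tcf7l1. Another 13 were higher in Cilp/Thbs4 cells: Wnt9a, Wnt11, Wls, Frzb, Dkk2, Rspo1, Ror2, Fzd1, Fzd2, Fzd3, Kremen1, Lrp5 and Nkd2. The remaining 21 did not pass.

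The mix of fibroblast types was not the same in all libraries. Efemp1/Clec3b cells made up 16.9% and 31.7% of fibroblast-like cells in the fresh 10x libraries and 66.5%, 65.6% and 64.2% in stored 10x, BD 1 and BD 2. Mural markers in fibroblast-like cells moved with it. Their summed level was 1688 and 1653 CPM in the fresh 10x libraries, with 6 of 6 markers detected, and 343, 254 and 278 CPM in the other 3, with Des at 0 in BD 1. Both facts bear on the comparisons of libraries below.

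Turning to the epithelium, Wif1 was unevenly spread. A UMI of Wif1 was found in 4.60%, 4.04%, 7.90%, 7.85% and 10.1% of epithelial-like cells. At 2000 UMIs per cell the expected share was 0.769%, 1.04%, 2.28%, 1.97% and 3.33%. In cells thinned to 2000 UMIs its variance over its mean was 3.58, 1.21, 1.47, 1.43 and 1.85, where independent sampling of an even level gives about 1. Only 17 and 18 Wif1 UMIs remained in the thinned fresh 10x libraries, so those 2 values are imprecise. For Sfrp1 the ratio was 1.01 to 1.18, for Wnt5b 1.03 to 1.23 and for Wnt5a 0.976 to 1.19. In fresh 10x 2 the value of Wnt5b, 1.22, was no lower than that of Wif1. Wnt4 and Dkk3 reached 1.40 and 1.33, each in a library with 12 or fewer thinned UMIs of the gene. The 3 libraries with the most Wif1 were stored 10x, BD 1 and BD 2.

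A single sub-cluster held much of the Wif1. Epithelial-like cells fell into 14 sub-clusters, again made without the Wnt genes, and one led by Smr2, Dcpp2, Lgals7 and Slpi held 96.7, 92.7, 119.6, 131 and 183 CPM of Wif1. It made up 4.20%, 3.41%, 7.86%, 7.11% and 10.2% of epithelial-like cells and carried 63.5%, 46.7%, 65.3%, 64.5% and 66.9% of their Wif1 UMIs. Smr2 encodes a secreted protein known from salivary glands, and the sub-cluster matched no class of the fixed marker lists. The next highest mean was in the cycling-like sub-cluster, led by Ube2c and Top2a, at 5.11, 1.19, 12.1, 8.61 and 22.6 CPM, a range that overlapped those of other sub-clusters. In the other sub-clusters Wif1 was at most 11.3 CPM in any library, except for 16.6 CPM from 1 UMI in 22 shallow cells of fresh 10x 2. Arg1, which encodes arginase 1, was among the leading genes of the Smr2 cluster when all cells were clustered and of the Pip sub-cluster within the epithelium.

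**Figure D3:**
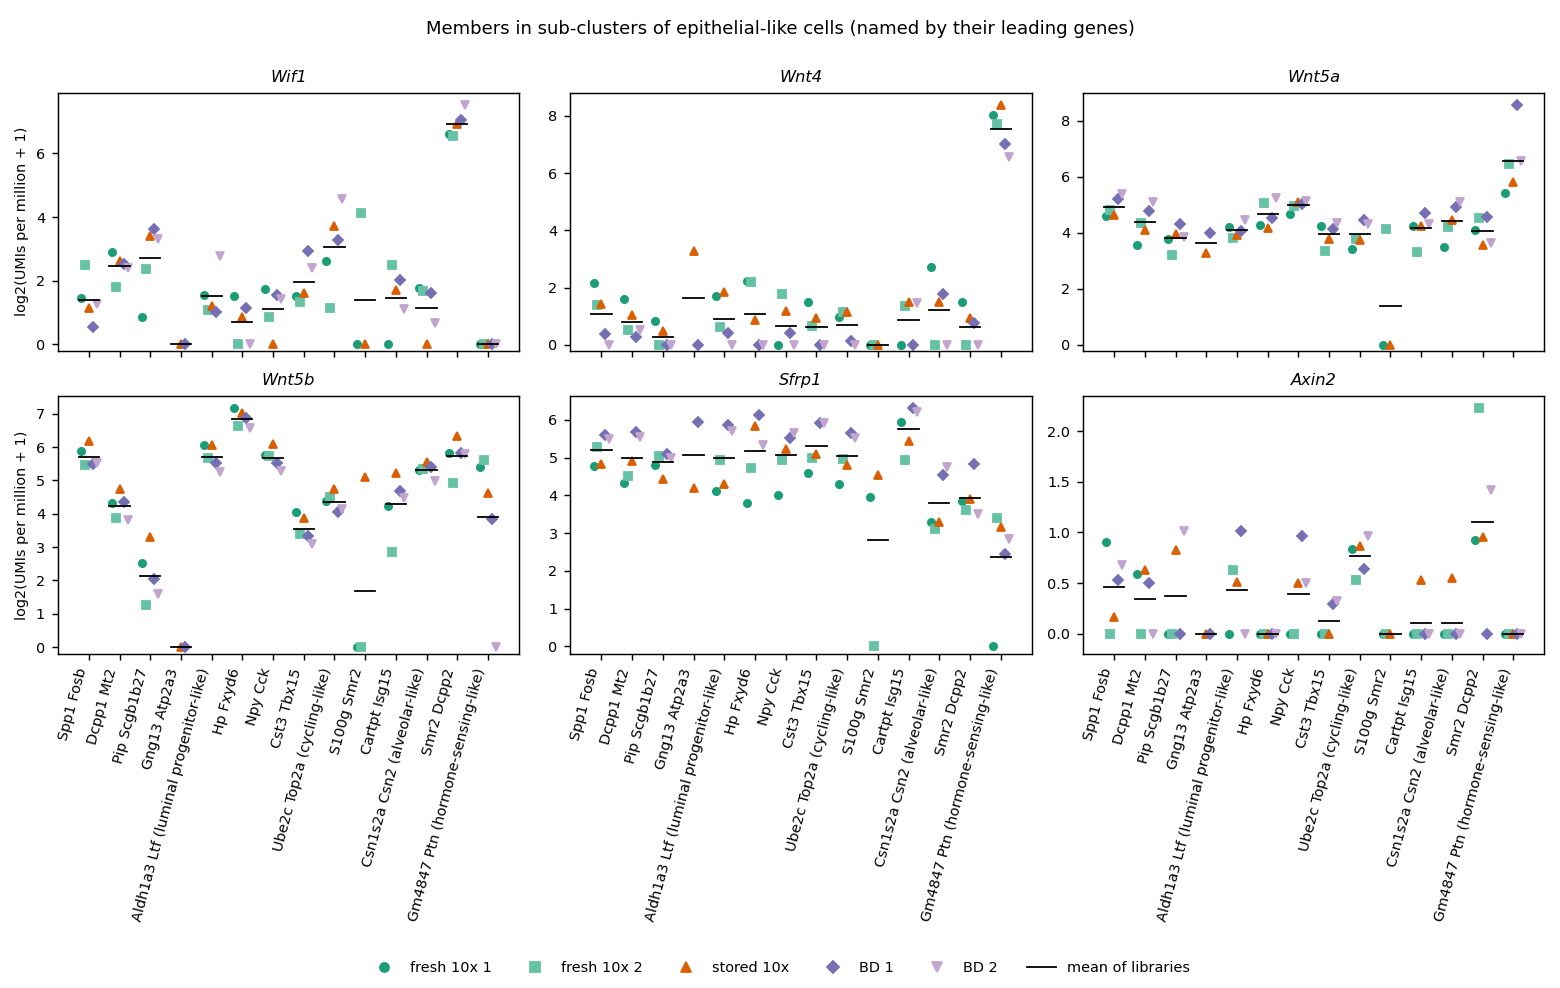
Level of 6 members as log2(CPM + 1) in the sub-clusters of epithelial-like cells, named by their leading genes, with a point for each library that held at least 5 such cells and a line at the mean of the libraries. Wif1 stands out in the sub-cluster led by Smr2 and Dcpp2, Wnt4 in the hormone-sensing-like one and Wnt5b in the one led by Hp and Fxyd6.

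Wnt4 reached its highest level in a small group of epithelial cells. A hormone-sensing-like sub-cluster of 5, 6, 10, 13 and 13 cells, led by Gm4847, Ptn, Plac8 and Tph1 and with Cited1 and Areg among its leading genes, held 260.2, 210.4, 333, 129 and 93.6 CPM of Wnt4. The exact 95% Poisson intervals of these levels ran from 168 to 384 CPM in fresh 10x 1 and from 52.4 to 154 CPM in BD 2, and cover counting error only. In all other sub-clusters Wnt4 was at most 8.69 CPM. These cells were 0.404%, 0.476%, 0.391%, 0.528% and 0.470% of epithelial-like cells and carried 36.2%, 45.8%, 59.2%, 67.4% and 75% of the epithelial Wnt4 UMIs. Wnt5a was also high in them, at 41.6, 86.1, 55.5, 378 and 93.6 CPM, with the value of BD 1 standing far above the other 4. No Wif1 UMI was found in these 47 cells, where 3 counts would be 11.9 to 31.2 CPM, so a low level was not detectable at this depth.

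Wnt5b varied by sub-cluster as well. It was highest in the one led by Hp, Fxyd6 and Angptl4, at 143, 98.0, 129.6, 116 and 94.4 CPM, and lowest among the larger ones in the sub-cluster led by Pip and Scgb1b27, at 4.77, 1.39, 8.85, 3.14 and 2.05 CPM. The luminal progenitor-like sub-cluster, led by Aldh1a3 and Ltf, lay between, at 65.5, 49.6, 66.1, 44.7 and 37.1 CPM. Among the larger sub-clusters Sfrp1 had its lowest means in the Smr2 one (13.4, 11.1, 14.0, 27.3 and 10.3 CPM) and in the alveolar-like one, led by milk protein genes (8.75, 7.67, 8.79, 22.2 and 25.9 CPM). Its highest mean was in the sub-cluster led by Cartpt and interferon-induced genes, at 61.1, 29.8, 42.6, 78.4 and 72.4 CPM. Outside the 3 smallest sub-clusters Wnt5a ran from 8.34 to 40.6 CPM. Axin2 did not exceed 3.71 CPM in any sub-cluster, and a difference between sub-clusters was not detectable at this depth. For Lgr5, 11 of its 20 UMIs in epithelial-like cells of fresh 10x 1 lay in 3 cells of the Smr2 sub-cluster, and the other libraries showed no such share.

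Cells that held a Wif1 UMI were compared with those that held none, within each library. There were 57, 51, 202, 193 and 278 Wif1-positive epithelial-like cells, and 31.6%, 33.3%, 54.5%, 49.7% and 55.8% of them lay in the Smr2 sub-cluster, against 3.48% to 5.65% of the negative cells. Among the other 9 members, 3 were lower in Wif1-positive cells and none was higher. In this comparison 15.8% of 13632 genes passed (5.99% higher and 9.77% lower). Sfrp1 was lower by edgeR's quasi-likelihood test, at -0.70 ± 0.09 (adjusted p = 0.000242), in 5 of 5 libraries. Wnt5a was lower at -0.56 ± 0.11 (adjusted p = 0.00295) in 5 of 5 libraries. Wnt4 was lower at -1.93 ± 0.48 (adjusted p = 0.0151), from 9 UMIs in positive and 313 in negative cells.

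Those 3 calls did not stand equally. Without the Smr2 sub-cluster Sfrp1 stayed lower (-0.42, adjusted p = 0.0145), Wnt5a just missed the threshold (-0.48, adjusted p = 0.0540) and so did Wnt4 (-2.15, adjusted p = 0.0532). Without the hormone-sensing-like cells Wnt4 measured -0.67 (adjusted p = 0.513), and without the stored library -1.75 (adjusted p = 0.127). With DESeq2 the Wnt4 call was lost as well (adjusted p = 0.0612), and with no library block all 3 were (adjusted p = 0.248 for Sfrp1, 0.372 for Wnt5a and 0.326 for Wnt4). Axin2 measured 1.10 ± 0.60 (adjusted p = 0.260), from 17 UMIs in positive and 61 in negative cells. Dkk3 measured -1.01 ± 0.48 (adjusted p = 0.188), Sfrp2 -0.31 ± 0.20, Sfrp4 -0.34 ± 0.52, Wnt5b 0.12 ± 0.13 and Lgr5 0.01 ± 0.64, none of which passed. Of the other pathway genes, Wnt9b, Fzd3, Fzd7, Znrf3, Nkd2 and Tcf7l1 were higher in Wif1-positive cells and Tcf7l2 was lower.

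A deeper cell is likelier to yield a UMI, and positive cells were deeper. Their median was 32294, 15677, 19332, 21394 and 16062 UMIs, against 13055, 13722.5, 11919.5, 13834 and 10747 in negative cells. The 6 fibroblast markers summed to 65.0, 165, 126, 132 and 103 CPM in positive cells and 85.7, 62.9, 130.02, 138 and 113 CPM in negative cells, so they were higher in positive cells of fresh 10x 2 only. Mural markers were also higher there, at 98.0 against 25.5 CPM. The 8 epithelial markers summed to less in positive than in negative cells of 5 of 5 libraries, at 3196 to 6003 CPM against 4210.3 to 7387 CPM. The part of depth and of all these markers in each member's difference was not tested. The comparison was repeated with the gate read on cells thinned to a single depth, which left 8, 18, 52, 48 and 92 positive cells. Their full-depth medians were 19768, 11464, 14055, 14194 and 11998.5 UMIs, against 13530, 14034.5, 12955, 14327 and 11236 in negative cells. There Sfrp1 measured -0.87 (adjusted p = 0.000723), Wnt5a -1.11 (0.00125) and Wnt4 -7.81 (0.0346, a fitted value that rests on very few counts), all past the threshold.

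Outside the pathway, Kcng2, a potassium channel subunit, was higher in Wif1-positive cells by 4.06 ± 0.41, with 0.827 to 6.49 CPM in positive and at most 0.359 CPM in negative cells. Bcl11b, a zinc finger transcription factor, was higher by 2.83 ± 0.29 and Ripply1, a transcriptional repressor, by 2.59 ± 0.24. The zinc transporter Slc39a8 reached 5.39 to 67.8 CPM against 2.64 to 6.02 CPM (2.75 ± 0.26), and Smr2 itself was higher by 2.70 ± 0.40. The other 4 were Wfdc15b (3.85 ± 0.40), Bpifb5 (3.80 ± 0.57), Bglap (3.17 ± 0.28) and Apobec2 (2.76 ± 0.30). Genes were named only if higher in 5 of 5 libraries, so that agreement of these 9 is no result. Without the Smr2 sub-cluster 7 of the 9 still passed, with Bglap and Smr2 lost, and with the gate read on thinned cells 9 of 9 did.

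The genes most lowered in Wif1-positive cells included several that lead the hormone-sensing-like sub-cluster. Gm4847 had 0 UMIs in positive and 1066 in negative cells, at least 41.3-fold lower when 3 counts over all positive cells are taken as the floor. Tph1, which makes the first intermediate of serotonin, had 4 UMIs against 517, Fxyd2 4 against 601 and Plac8 3 against 646. Calca, the calcitonin gene, had 0 against 214 (at least 8.29-fold lower), Ctsr 0 against 134 (at least 5.19-fold), F830016B08Rik 0 against 128 (at least 4.96-fold) and Bean1 0 against 97 (at least 3.76-fold). Gm4926 had 1 UMI against 207, and Rsad2, an interferon-induced gene, 6 against 876. Each of the 10 was lower in 5 of 5 libraries, which was a condition for being named. Without the Smr2 sub-cluster 8 of 10 passed, a setting that kept the hormone-sensing-like cells. No hormone-sensing-like cell held a Wif1 UMI, so all of them counted as negative cells. Values of these 10 genes without those cells are not given here. With the gate on thinned cells, 9 were tested and 6 passed.

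Between platforms, BD 1 was compared with the fresh 10x pair in each class. The test took its spread from the 2 fresh 10x samples alone and assumed that the single BD 1 and stored 10x samples vary like them. Tumour, animal and run cannot be told apart from platform or storage here. In epithelial-like cells, where 42.8% of 15368 genes passed (21.6% higher and 21.2% lower in BD 1), 5 members were higher in BD 1 and 1 was lower. Dkk3 was higher by 1.53 ± 0.45 (adjusted p = 0.0261), Sfrp2 by 0.99 ± 0.22 (0.00880), Wif1 by 0.97 ± 0.27 (0.0208), Sfrp1 by 0.73 ± 0.15 (0.00597) and Wnt5a by 0.54 ± 0.13 (0.0112). Wnt4 was lower at -1.53 ± 0.44 (0.0247). Relative to its fibroblast level, epithelial Sfrp2 lay above the median of the fibroblast markers given above and, in these libraries, below the highest marker. All are edgeR quasi-likelihood values with Benjamini-Hochberg adjustment. With DESeq2's Wald test Sfrp1 alone stayed past the threshold, and the others had adjusted p-values of 0.0533 (Wif1) to 0.270 (Dkk3). Sfrp4 (0.39 ± 0.57), Wnt5b (-0.29 ± 0.22), Axin2 (0.17 ± 0.70) and Lgr5 (-0.39 ± 0.54) did not pass.

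The Wif1 value of BD 1 was itself uneven. The BD 1 table contains 2 deposited subsets of cells and 710 cells that are in neither. Wif1 in epithelial-like cells measured 11.4 CPM in the first subset, 3.18 CPM in the second and 41.7 CPM in the remaining cells, while the fresh 10x values were 7.44 and 4.38 CPM. The Smr2 sub-cluster made up 7.46%, 1.40% and 19.3% of epithelial-like cells in these parts. Without that sub-cluster the difference between BD 1 and fresh 10x was 0.75 (adjusted p = 0.0465). The part of the subsets in the difference was not tested.

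Between the stored library and fresh 10x few genes of epithelial-like cells passed the threshold, and no member did. With a single stored sample, a member that did not pass may still differ. Of 15368 genes 1.33% passed (1.06% higher and 0.273% lower in the stored library), and 0 of 10 members did by edgeR's quasi-likelihood test or by DESeq2, with 4 members at an unadjusted p under 0.05. Those 4 were Wif1 (1.19 ± 0.27, adjusted p = 0.0883), Sfrp2 (1.10 ± 0.22, adjusted p = 0.0652), Sfrp4 (1.56 ± 0.53, adjusted p = 0.210) and Wnt5b (0.53 ± 0.21, adjusted p = 0.270), each higher in the stored library. Without the filter on low counts Wif1 (adjusted p = 0.0275) and Sfrp2 (0.0267) passed, and with both BD samples as a single fresh group Sfrp2 did (0.0411). The remaining 6 members lay between -0.59 (Lgr5) and 0.60 (Dkk3).

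In fibroblast-like cells 5 members differed between BD 1 and fresh 10x, where 44.1% of 12208 genes passed (21.6% higher and 22.5% lower). Sfrp4 was higher by 1.16 ± 0.19, Sfrp1 by 1.08 ± 0.20 and Axin2 by 0.75 ± 0.31 (adjusted p = 0.0497), and Lgr5 was lower at -1.57 ± 0.28 and Wnt5a at -1.21 ± 0.20. With DESeq2, Sfrp4 alone of these 5 passed. Sfrp2 (0.42 ± 0.18, adjusted p = 0.0556), Dkk3 (-0.26 ± 0.18), Wif1, Wnt4 and Wnt5b did not pass. Within a fibroblast type the picture changed. In Efemp1/Clec3b fibroblasts Sfrp4 measured -0.40 ± 0.20 (adjusted p = 0.221), Sfrp1 0.29 ± 0.23 (0.452), Wnt5a -0.33 ± 0.38 (0.633), Axin2 0.17 ± 0.49 (0.869) and Lgr5 -3.81 ± 1.26 (0.0794). In Cilp/Thbs4 fibroblasts Sfrp4 was higher by 2.91 ± 0.31 (1.12e-05), Axin2 by 1.30 ± 0.39 (0.0174) and Sfrp1 by 0.99 ± 0.19 (0.00103), and Wnt5a was lower at -0.57 ± 0.20 (0.0363), while Lgr5 measured -0.33 ± 0.24 (0.306). Sfrp2 (0.46, 0.0375) and Dkk3 (0.47, 0.0314) also passed there.

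In the stored library 4 members differed from fresh 10x in fibroblast-like cells, where 13.8% of 12208 genes passed (7.31% higher and 6.54% lower). Sfrp4 was higher by 1.77 ± 0.19 (adjusted p = 5.59e-09), Lgr5 was lower at -2.42 ± 0.35 (1.65e-06), Wnt5a at -1.87 ± 0.23 (5.16e-08) and Dkk3 at -1.49 ± 0.20 (5.82e-07). Sfrp1 and Sfrp2 measured 0.07 ± 0.21 and 0.07 ± 0.18. In the split above Sfrp4 was the higher one in Efemp1/Clec3b cells, whose share was larger in the stored library, and the other 3 were higher in Cilp/Thbs4 cells. In Cilp/Thbs4 fibroblasts alone Sfrp4 was higher by 3.65 ± 0.30 (8.52e-06), Lgr5 was lower at -1.92 ± 0.35 (0.00461) and Wnt5a at -1.35 ± 0.24 (0.00405), while Dkk3 measured -0.61 ± 0.19 (0.0780). In Efemp1/Clec3b fibroblasts alone, which number 33 and 38 in the fresh 10x libraries, the values were 0.27 ± 0.19 for Sfrp4 (0.817), -2.16 ± 1.18 for Lgr5 (0.746), -0.81 ± 0.42 for Wnt5a (0.727) and -1.66 ± 0.38 for Dkk3 (0.170). The part of the mural markers, which fell in the same libraries, was not tested. The comparisons of BD 1 and of stored 10x share their control samples, so their agreement is not independent.

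The difference between fibroblast-like and epithelial-like cells in these responses was itself tested, in a model over both classes with the library as a block. Its spread again came from the fresh 10x samples alone, and the single BD 1 and stored 10x samples were assumed to vary like them. Against fresh 10x, 6.43% of 15412 genes differed between classes in BD 1 (2.77% upward and 3.66% downward) and 5.56% in the stored library (3.19% upward and 2.37% downward). Of the 10 members, 3 did in each: Dkk3 (-1.83 ± 0.34 in BD 1 and -2.06 ± 0.40 in stored 10x, fibroblast-like minus epithelial-like), Wnt5a (-1.80 ± 0.23 and -1.98 ± 0.26) and Sfrp2 (-0.63 ± 0.20 and -1.02 ± 0.20). For Wnt4, Wif1 and the other 5 members the test of the difference did not pass in either library.

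**Figure D4:**
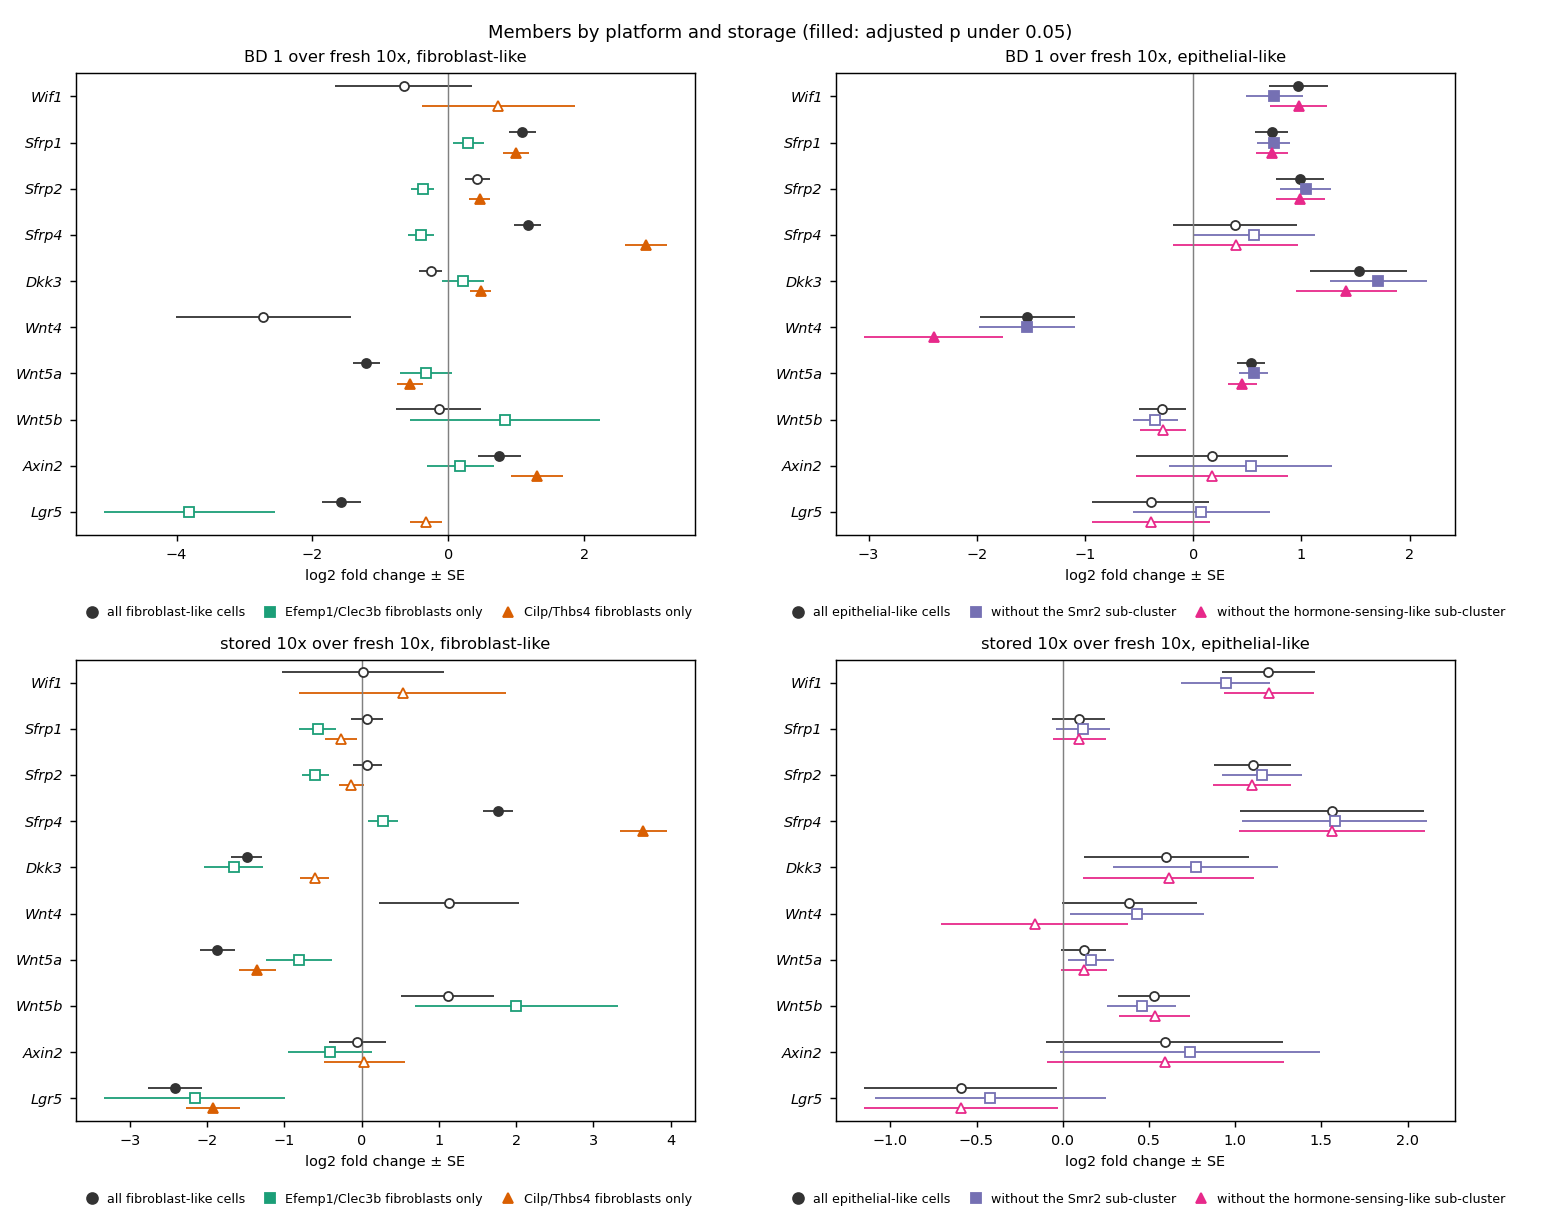
Log2 difference ± SE of each member between BD 1 or stored 10x and the fresh 10x pair, in fibroblast-like cells (left, with each fibroblast type alone) and epithelial-like cells (right, without the Smr2 or the hormone-sensing-like sub-cluster). Filled points have an adjusted p under 0.05. In the stored library Sfrp4 differs by 1.77 over all fibroblast-like cells, 3.65 within Cilp/Thbs4 and 0.27 within Efemp1/Clec3b fibroblasts.

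By likeness across the sums of 22 class and library combinations, each member sat near a few genes. Pearson's r of log2(CPM + 1) is given as a description, since the sums share libraries and classes. Nearest to Sfrp2 were Pdgfra (0.972), Ogn, Ephb2, Tspan11 and Lgi2, and to Sfrp4 were Hhipl1 (0.991), Prg4, Tmeff2, Fgf7 and Tmem45a. For Sfrp1 they were Plagl1 (0.963), Epdr1, Chl1, C3 and Slc1a3, and for Dkk3 Cpxm2 (0.969), Islr, Tnc and B3gnt9. Wnt5a was nearest to Smo (0.923), Angpt1, Tspan3, Bmpr1a and Vasn, Lgr5 to Crabp1 (0.965), Ptger3, Msc, Col8a2 and C1qtnf3, and Axin2 to Sulf1 (0.916), Dcbld2, Cped1, Tmem100 and Mmp11. Wif1 was nearest to Itgb6 (0.914), Fbp1, Plekhd1, Cited1 and Trpm6. The scarcer or more even Wnt4 (Rnf126, 0.850) and Wnt5b (Atp5l, 0.833) had weaker neighbours. Over 57 sums of epithelial sub-clusters, Wif1 was nearest to Fgg (0.767), Camk1d, Slc39a8, Meis1 and Kctd14, Wnt4 to Bcl2a1b (0.670) and Axin2 to Aoc3 (0.663). Only sums of at least 20 cells entered. The hormone-sensing-like sub-cluster, where Wnt4 was highest, held 5 to 13 cells per library and was left out. The Axin2 value rests on at most 78 UMIs.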

How the data were processed

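The authors deposited tables of raw UMI counts per gene and cell, unnormalised whole numbers, for 5 libraries of mouse mammary tumour cells. The submitters' processing notes name Cell Ranger 3.0.1 and the mm10 build. How the BD Rhapsody counts were made is not given in the sources used here. The fresh 10x tables list 42562 genes and the other 3 list 32845, and no gene missing from a table held a UMI in another. Deposited tables that hold subsets of BD 1 were used only to mark its cells.

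Of 15958 cells, 15608 were clustered. Left out of the clustering were 339 cells with under 200 genes and 11 cells with at least 5% haemoglobin UMIs. Clustering used scanpy 1.11.5 (2000 variable genes, 30 principal components, 15 neighbours, Leiden resolution 1.0), with the 80 Wnt pathway genes left out. Scrublet, at an expected rate of 0.06, marked 1 to 12 cells per library and was taken not to have worked, so no doublets were removed. Clusters were named only where the fixed markers allowed it, and a difference from the study may come from these rebuilt names.

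UMIs were summed per library and class and tested with edgeR 4.0.16 (quasi-likelihood, TMM scaling, its filter on low counts, Benjamini-Hochberg threshold 0.05) in R 4.3.3, with the library as a block in comparisons within libraries. DESeq2 1.42.0 was an alternative. SE is of the log2 fold change. The scripts were also run on simulated data with known changes. Alternatives were another clustering resolution, classes by a marker gate, a cell filter (at least 500 UMIs and at most 20% mitochondrial), no filter on low counts, no library block, other Wif1 gates, BD 1 and BD 2 as one group, and leaving out each library. Leaving out a sub-cluster or keeping 1 fibroblast type was chosen after seeing the data. Expected shares of cells with a UMI at 2000 UMIs leave out shallower cells. Intervals are exact Poisson (95%).

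The members and gene lists were chosen with earlier results of these data known. Named were every member, up to 5 genes per Wnt list and direction by size of change (at least 50 UMIs), the 10 genes most changed each way with Wif1 in all 5 libraries, and the 5 genes most like each member. Of these, 2 genes are not reported here. Sequences are from RefSeq promoter tables, and the GENCODE M21 annotation on GRCm38 gave the gene positions.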

Additional observations from a re-analysis of the deposited data

Results flagged for a closer look

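For 3 members the difference from the fresh 10x libraries was not the same in fibroblast-like and epithelial-like cells, by edgeR's quasi-likelihood test of the interaction. Values are the log2 difference in fibroblast-like minus that in epithelial-like cells, with SE.

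Dkk3 gave -1.83 ± 0.34 in BD 1 (adjusted p = 5.50e-05) and -2.06 ± 0.40 in stored 10x (adjusted p = 0.000102). Wnt5a gave -1.80 ± 0.23 in BD 1 (adjusted p = 1.92e-09) and -1.98 ± 0.26 in stored 10x (adjusted p = 4.21e-09), with the fibroblast level lower and the epithelial level not lower than in fresh 10x. Sfrp2 gave -0.63 ± 0.20 in BD 1 (adjusted p = 0.0349) and -1.02 ± 0.20 in stored 10x (adjusted p = 0.000107). The epithelial level of Sfrp2 stood at 0.352% to 0.805% of its fibroblast level, against up to 0.699% for the fibroblast markers. It was thus above the median of those markers, at 0.147% to 0.319%, and nearer the highest one. The part of free RNA or doublets in the interaction was not tested. Both comparisons use the same fresh 10x samples. The share of Efemp1/Clec3b fibroblasts also differed between these libraries, from 16.9% and 31.7% in fresh 10x to 65.6% in BD 1 and 66.5% in stored 10x, and its part in the interactions was not tested.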

How the results depend on the processing

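The contrast of fibroblast-like and epithelial-like cells depended least on the processing: of 99 recomputed values of called members, 97 kept direction and call and 2 lost the call, both for Wnt5a. Leaving out each library moved its count of genes past the threshold from 10666 to between 9550 and 10429. For the fibroblast types the count was 2230 with the 4 gate genes included, 1520 to 2020 with a library left out, and 619 with no library block. For Wif1-positive cells it was 2150, 1109 to 2646 with a library left out (1109 without BD 1, 1232 without BD 2, 1278 without stored 10x), 132 with no library block and 963 without the Smr2 sub-cluster. Against fresh 10x the count for BD 1 was 6573 in epithelial-like cells (3777 with DESeq2) and 5383 in fibroblast-like cells (1290 with DESeq2, 1538 in Efemp1/Clec3b cells). For stored 10x it was 205 in epithelial-like cells (317 with the BD samples as one fresh group, 112 with the cell filter, 389 with no filter on low counts) and 1690 in fibroblast-like cells (1097 with the BD samples as one group, 191 with DESeq2, 598 in Cilp/Thbs4 and 63 in Efemp1/Clec3b cells). Counts in a single fibroblast type or without a sub-cluster rest on fewer cells, and otherwise the cause was not tested.

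Some members changed sign. In Wif1-positive cells Sfrp4 was 0.47 with the thinned gate, Wnt5b was -0.0436 without BD 2 and -0.28 without the Smr2 sub-cluster, and Lgr5 was -0.0659 with DESeq2, -6.51 with the thinned gate, -0.00982 without BD 2, -0.84 without fresh 10x 1 (up to 0.46, without BD 1) and -0.00181 without hormone-sensing-like cells. In epithelial-like cells Lgr5 in BD 1 was 0.0753 without the Smr2 sub-cluster and Wnt4 in stored 10x was -0.16 without hormone-sensing-like cells. In fibroblast-like cells of BD 1, Efemp1/Clec3b cells alone gave -0.38 for Sfrp2, -0.40 for Sfrp4, 0.22 for Dkk3 and 0.83 for Wnt5b. There Cilp/Thbs4 cells alone gave 0.47 for Dkk3 and 0.73 for Wif1, and the BD samples as one group gave 0.94 for Wif1. In stored 10x, Efemp1/Clec3b cells alone gave -0.57 for Sfrp1 and -0.60 for Sfrp2, and Cilp/Thbs4 cells alone -0.27 for Sfrp1, -0.13 for Sfrp2 and 0.0344 for Axin2. With a fresh 10x library left out the comparisons of BD 1 and stored 10x have no residual degrees of freedom and give values with no test. Members with no call that changed sign there were Axin2 (-0.12) and Wnt5b (0.0747) in epithelial-like and Dkk3 (0.0248) and Wnt5b (0.21) in fibroblast-like cells of BD 1, and Sfrp1 (-0.0277) in epithelial-like and Axin2 (0.22), Sfrp1 (-0.27), Sfrp2 (-0.16) and Wif1 (-0.29) in fibroblast-like cells of stored 10x.

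No paired analysis was possible because the libraries carry no numbers shared between groups that mark a common animal or day, and the library block in the comparisons within libraries is the pairing there. Among the classes named by markers, the one with the highest level stayed the same for 10 of 10 members with the cell filter, and for 9 with the marker gate. The exception was Wnt4, endothelial in the main setting and mural with the marker gate. The Krt5 and Krt14 cluster, where Wnt4 had its highest mean, was not part of this check. Wnt4, Axin2 and Lgr5 counts in epithelial-like cells, at 322, 78 and 119 UMIs in all, limit what can be seen of them.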
